A study of Homo sapiens with 4 samples.

Results

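Beta-catenin and 9 genes that are widely used as readouts of its activity were followed through RNA-seq libraries labelled HepG2. The 10 genes were CTNNB1, AXIN2, LGR5, NKD1, SP5, TBX3, RNF43, ZNRF3, NOTUM and TNFRSF19, chosen by symbol among the 44591 genes listed for every library. HepG2 is an established human liver cancer cell line. The cells were transfected at about 70% confluency with siNC, the control siRNA, or with siLINC01186, siRNA against the long noncoding RNA LINC01186 that the study calls SALIS. Both groups then spent 6 h in medium without serum and 24 h in medium with serum, and each group had 2 libraries, numbered replicate 1 and replicate 2 in the labels. The study describes the repeats as biological, with the same siNC and a different oligo against SALIS in each, and the labels do not say which library received which oligo.

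In the canonical Wnt pathway, Wnt ligands bind Frizzled receptors with the co-receptors LRP5 and LRP6, and this stops a destruction complex built on Axin and APC from marking beta-catenin for degradation. Beta-catenin then enters the nucleus and switches on target genes with TCF and LEF proteins, and many of those targets act back on the pathway as brakes. In the liver, beta-catenin activity is highest around the central veins and sets the metabolic program of the hepatocytes there. HepG2 is known to carry an activating CTNNB1 allele with an in-frame deletion that removes the phosphorylation sites read by the destruction complex, so its beta-catenin escapes degradation. Gene counts do not separate alleles of CTNNB1, so whether the cells of these libraries carry the deletion was not examined here.

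LINC01186 itself was counted 15 times in siNC replicate 1, 14 times in siNC replicate 2, and 12 and 14 times in siLINC01186 replicates 1 and 2, with a log2 fold change of -0.12 (SE 0.53, unadjusted p = 0.831, edgeR's quasi-likelihood test). The difference in the targeted RNA was smaller than its standard error, and the groups are named below by their labels. At 55 counts over the 4 libraries, the size of any change in this RNA was poorly measured. The study reports its knockdown by qPCR in HepG2 cells, a measure that was not made here. Library totals lay between 14968958 and 17297245 counts. Levels are given in CPM, the count scaled to a common library size after TMM normalization, and 3 counts, taken as the lowest level that can be told from 0, were worth 0.169 to 0.210 CPM. This floor and the intervals of ratios within a replicate number cover counting error only. Intervals of log2 fold changes also carry the spread between libraries as edgeR estimated it.

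The labelled cell line was set against 10 hepatocyte markers, and most of those that define hepatocytes were absent or near 0. ALB, the serum albumin gene, had 0 counts in siNC replicate 1 and siLINC01186 replicate 1, and 15 and 14 counts in the same groups of replicate 2. APOA1, the main apolipoprotein of HDL, had 0 and 0 counts in replicate 1 and 21 and 20 in replicate 2. TTR, the transthyretin gene, had 0 counts in 3 libraries and 3 in siLINC01186 replicate 2. These genes are among the most abundant transcripts of liver cells, so the libraries go against their label in this respect. The number of the 10 markers at 0 was 6 in siNC replicate 1, 4 in siLINC01186 replicate 1, 1 in siNC replicate 2 and 0 in siLINC01186 replicate 2. AFP, the fetal albumin relative used as a marker of liver cancer, had 2 to 16 counts per library, and HNF4A, a transcription factor of hepatocytes and other epithelia, had 79 and 83 counts in replicate 1 and 161 and 188 in replicate 2. Of the summed level of the whole list, 815 to 986 CPM, all but 4.90 to 17.1 CPM came from KRT18, a keratin of many simple epithelia. A list of 10 markers of other cell types summed to 446 and 459 CPM in replicate 1 and 345 and 390 CPM in replicate 2. Its keratin of ducts and other epithelia, KRT7, had 4142 to 6110 counts, its macrophage marker CD68 786 to 912, its fibroblast collagen COL1A1 333 to 790 and its pan-leukocyte marker PTPRC 0 to 2. In siNC replicate 1, KRT7 made up 365 of the 459 CPM. The other markers of the list, the epithelial markers KRT19 and EPCAM among them, shared the rest. All 4 libraries shared the low hepatocyte markers, so no comparison could be made without libraries of this kind. The results hold for the libraries as labelled, whatever cells they came from.

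**Figure D1:**
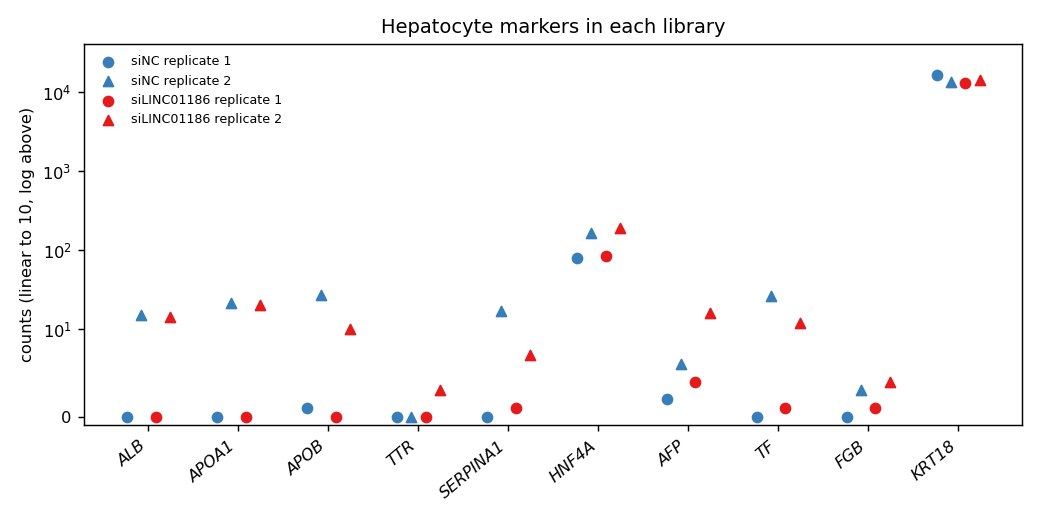
Counts of the 10 hepatocyte markers (horizontal axis) in each of the 4 libraries (vertical axis, counts, a symmetric log scale that is linear near 0). KRT18 had at least 12963 counts in every library, while ALB, APOA1 and TTR were at 0 in both replicate 1 libraries and at 0 to 21 in replicate 2.

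At baseline, CTNNB1 was the most abundant of the 10 genes and the target genes spread over a wide range below it. Genes were compared per kb of the length in the tables, since a longer transcript collects more counts. In the siNC libraries the order was CTNNB1 at 56.6 ± 0.526 CPM per kb (SD, n = 2), NOTUM at 17.9 ± 2.66, TBX3 at 9.05 ± 0.240, AXIN2 at 4.88 ± 1.48, SP5 at 4.66 ± 0.563 and ZNRF3 at 3.92 ± 0.787 CPM per kb. Below 1 CPM per kb stood RNF43 at 0.972 ± 0.129, NKD1 at 0.435 ± 0.169, LGR5 at 0.287 ± 0.0953 and TNFRSF19 at 0.0503 ± 0.00131. AXIN2, SP5 and ZNRF3 did not differ from each other beyond their spread, and their order was not the same in the siNC libraries. NKD1 and LGR5 also lay within their spread, but NKD1 was the higher in every library. CTNNB1 stood higher than 94.8% of the 23942 genes tested, NOTUM than 82.5%, RNF43 than 38.8% and TNFRSF19 than 6.14%. Among the partners of beta-catenin at cell junctions, JUP, the gene of gamma-catenin and the closest relative of beta-catenin, stood at 253 ± 15.8 CPM per kb, above CTNNB1, while CDH1, the gene of E-cadherin, stood at 0.206 ± 0.0846.

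**Figure D2:**
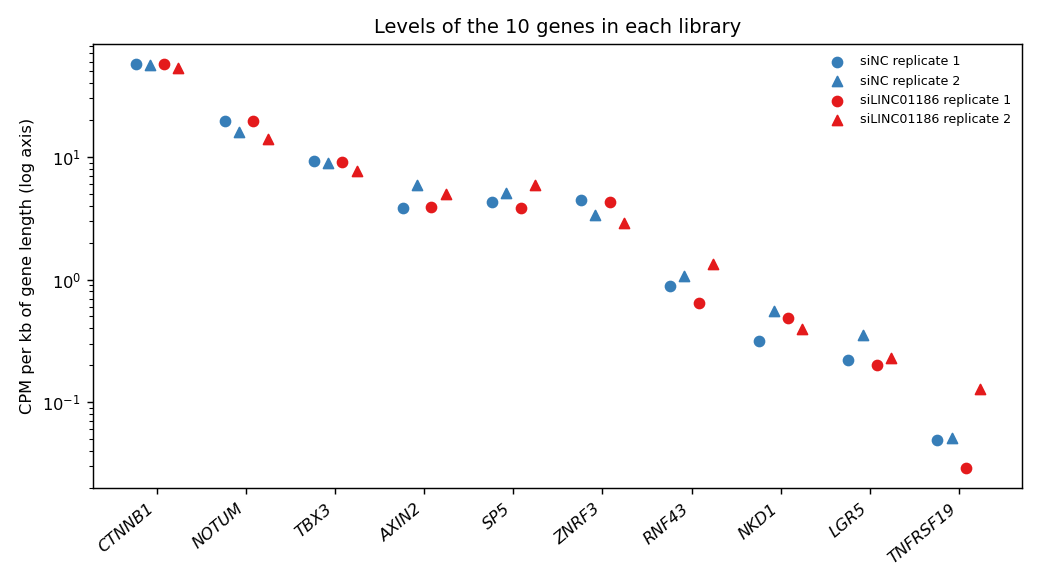
Level of each of the 10 genes (horizontal axis) in the 4 libraries (vertical axis, CPM per kb of gene length, log scale). CTNNB1 lay near 57 CPM per kb in the siNC libraries and TNFRSF19 near 0.05, and the symbols of siNC and siLINC01186 overlapped for every gene.

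None of the 10 genes passed a test between siLINC01186 and siNC. With edgeR's quasi-likelihood test and Benjamini-Hochberg adjustment, every one of them had an adjusted p of 1.00, and 0 of the 23942 genes tested (0%) passed an adjusted p under 0.05. At an unadjusted p under 0.05 there were 289 of the 23942 genes, and DESeq2's Wald test called 1 at the adjusted limit. With the replicate number as a further term of the model, 2005 genes had an unadjusted p under 0.05. At the adjusted limit edgeR then called 83 genes higher and 195 lower, and 0 of the 10. The fit without this term counts any difference between the replicate numbers as spread within a group. Its p-values therefore do not show an absence of change. The study's own limits are an unadjusted p under 0.05 together with a log2 fold change past 1 in size. At these limits, without the replicate number as a term, 181 genes passed in either direction (0.756%) and 0 of the 10. Both siLINC01186 libraries lay below both siNC libraries for 12.4% of all genes tested and above them for 13.6%, and for 0 of the 10 in either direction. The median log2 fold change was -0.07 over the 10 genes, with 4 above 0 and 6 below, and 0.00453 over all genes tested. On the deposited TPM values, where the median of all genes moved to -0.17, the ratio was below 1 for 9 of the 10 genes, TNFRSF19 excepted. MIR6087 alone took 13.8% and 8.69% of the TPM in the siLINC01186 libraries, and 1.16% and 1.91% in the siNC libraries.

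CTNNB1 (hg19 chr3:41240915-41281944, plus strand) encodes beta-catenin itself. It had 221 CPM in siNC replicate 1, 219 in siNC replicate 2, 222 in siLINC01186 replicate 1 and 206 in siLINC01186 replicate 2. The lowest value was that of siLINC01186 replicate 2 and the groups overlapped. The log2 fold change was -0.04 (SE 0.18, 95% interval -0.44 to 0.36, unadjusted p = 0.832, edgeR's quasi-likelihood test). With over 3000 counts in each library, this was the most precisely measured of the 10 genes.

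Among the 5 brakes on the pathway, AXIN2 (hg19 chr17:63524681-63557740, minus strand) encodes the scaffold of the destruction complex that beta-catenin itself induces in most tissues. It had 16.2 and 25.1 CPM in siNC replicates 1 and 2 and 16.5 and 21.2 CPM in siLINC01186 replicates 1 and 2. The values separated by replicate number and not by siRNA. The log2 fold change between siLINC01186 and siNC was -0.13 (SE 0.27, 95% interval -0.73 to 0.47). NOTUM (hg19 chr17:79910383-79919057, minus strand) encodes a secreted enzyme that removes the lipid Wnt ligands need for receptor binding. Its levels were 43.8 and 35.4 CPM in siNC replicates 1 and 2 and 43.3 and 31.1 CPM in siLINC01186 replicates 1 and 2. Both replicate 1 libraries were high and both replicate 2 libraries low, and the log2 fold change between the siRNAs was -0.09 (SE 0.22, 95% interval -0.60 to 0.42).

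ZNRF3 (hg19 chr22:29279755-29453476, plus strand) and RNF43 (hg19 chr17:56429861-56494943, minus strand) encode related membrane ubiquitin ligases that clear Frizzled receptors from the cell surface. ZNRF3 had 30.3 and 22.8 CPM in siNC replicates 1 and 2 and 29.3 and 19.5 CPM in siLINC01186 replicates 1 and 2, with a log2 fold change of -0.13 (SE 0.26, 95% interval -0.71 to 0.46). RNF43 had 5.13 and 6.19 CPM in siNC replicates 1 and 2 and 3.78 and 7.77 CPM in siLINC01186 replicates 1 and 2, with a log2 fold change of 0.03 (SE 0.38, 95% interval -0.84 to 0.91). The siLINC01186 libraries held both the highest and the lowest RNF43 value. NKD1 (hg19 chr16:50582241-50674771, plus strand) encodes a protein that binds Dishevelled and dampens the signal. It had 2.75 and 4.83 CPM in siNC replicates 1 and 2 and 4.20 and 3.43 CPM in siLINC01186 replicates 1 and 2, from 46 to 78 counts. The siNC libraries lay outside the siLINC01186 libraries on both sides, and the log2 fold change was 0.01 (SE 0.39, 95% interval -0.87 to 0.89).

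LGR5 (hg19 chr12:71833550-71980090, plus strand) encodes a receptor for R-spondins, which raise Wnt signalling, and marks stem cells of several epithelia. Its counts were 18 in siNC replicate 1, 28 in siNC replicate 2, 14 in siLINC01186 replicate 1 and 20 in siLINC01186 replicate 2, or 1.07, 1.73, 0.980 and 1.13 CPM in that order. The log2 fold change was -0.41 (SE 0.50, 95% interval -1.54 to 0.72), so counts this low leave room for a fall or a rise of more than 1.5-fold. TNFRSF19 (hg19 chr13:24144509-24250244, plus strand), a member of the TNF receptor family that is also named TROY, had 4 counts in each siNC library, 2 in siLINC01186 replicate 1 and 11 in siLINC01186 replicate 2. Its level was at or near the floor in all libraries but siLINC01186 replicate 2, at 0.619 CPM, and a difference between the siRNAs was not detectable at this depth (log2 fold change 0.67, SE 0.93, 95% interval -1.43 to 2.77).

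The other 2 targets encode transcription factors. TBX3 (hg19 chr12:115108059-115121969, minus strand), a T-box factor that has been described as a beta-catenin target in liver tumours, had 44.1 and 42.5 CPM in siNC replicates 1 and 2 and 43.5 and 36.9 CPM in siLINC01186 replicates 1 and 2. Only siLINC01186 replicate 2 stood below the other libraries, and the log2 fold change was -0.11 (SE 0.19, 95% interval -0.53 to 0.32). SP5 (hg19 chr2:171571857-171574498, plus strand), a zinc finger factor of the Sp family and a direct target in many cell types, had 8.30 and 9.85 CPM in siNC replicates 1 and 2 and 7.42 and 11.5 CPM in siLINC01186 replicates 1 and 2. As for RNF43, the siLINC01186 libraries held the highest and the lowest value, and the log2 fold change was 0.06 (SE 0.30, 95% interval -0.61 to 0.74).

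The promoter of SP5 holds a cluster of the letters that TCF and LEF proteins recognise. RefSeq promoter windows of build GRCh38.p14 were at hand for 4 of the 10 genes, CTNNB1, SP5, RNF43 and TNFRSF19, in 6 windows. The core CTTTGA, or its reverse complement TCAAAG for the other strand, was searched in the 250 bases before each start site. The SP5 window (GRCh38.p14 chr2:170715087-170715336, plus strand) held 3 matches, which begin 147, 109 and 83 bases before the start site, and the other 5 windows held 0. For contrast, 1 of the 2 RNF43 windows is printed below it (GRCh38.p14 chr17:58417535-58417784, minus strand). Both run 5′ to 3′ towards the start site, and capitals mark the core.
SP5: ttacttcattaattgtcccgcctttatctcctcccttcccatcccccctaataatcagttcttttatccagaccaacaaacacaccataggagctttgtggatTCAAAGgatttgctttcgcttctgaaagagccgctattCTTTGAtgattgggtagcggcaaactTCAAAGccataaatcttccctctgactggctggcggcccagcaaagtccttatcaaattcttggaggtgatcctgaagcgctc
RNF43: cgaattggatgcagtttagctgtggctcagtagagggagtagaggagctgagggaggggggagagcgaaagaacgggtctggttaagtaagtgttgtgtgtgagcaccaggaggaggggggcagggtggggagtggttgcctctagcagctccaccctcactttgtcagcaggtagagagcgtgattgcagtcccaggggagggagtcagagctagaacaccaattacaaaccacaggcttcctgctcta
At least 1 match was present in 11.2% of 35116 windows of the same length, and 3 or more in 23 windows (0.0655%). A match is a description of letters and not of binding, and no match says only that these letters are not in the window. The level of SP5 was close to that of AXIN2 and ZNRF3 per kb, as given above.

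Within a replicate number there was 1 library of each group, so these differences have no replicate check and are given without a test. LGR5, TBX3, ZNRF3 and NOTUM were lower with siLINC01186 in both numbers, 4 of the 10 against 26.6% of all genes tested. In replicate 1 the differences of TBX3, ZNRF3 and NOTUM on the log2 CPM scale were -0.02, -0.05 and -0.01, and in replicate 2 they were -0.20, -0.22 and -0.19. No gene was higher in both numbers and 6 went opposite ways. CTNNB1 was at 0.00281 in replicate 1 and turned to -0.0179 when scaled by total counts, which makes it lower in both numbers. The largest opposite pair with at least 40 counts in every library was that of NKD1, at 0.59 in replicate 1 and -0.48 in replicate 2. In replicate 2, CTNNB1, AXIN2, LGR5, NKD1, TBX3, ZNRF3 and NOTUM were lower with siLINC01186, and SP5, RNF43 and TNFRSF19 were higher. The ratio of siLINC01186 to siNC in that number was 0.945 for CTNNB1 (95% interval 0.902 to 0.990), 0.843 for AXIN2 (0.731 to 0.973), 0.867 for TBX3 (0.778 to 0.967), 0.857 for ZNRF3 (0.738 to 0.995) and 0.877 for NOTUM (0.778 to 0.987). In replicate 1 the same ratios were 1.00 (0.955 to 1.05), 1.02 (0.851 to 1.22), 0.987 (0.885 to 1.10), 0.965 (0.845 to 1.10) and 0.990 (0.888 to 1.10). The replicate 2 intervals of these 5 genes lie below 1 and those of the other 5 span it, against 15.8% of all genes with an interval below 1 and 13.2% above 1. In replicate 1, the interval of NKD1 lies above 1, at a ratio of 1.53 (1.02 to 2.30), and the other 9 span 1, against 11.7% of all genes above and 10.7% below. When scaled by total counts, the intervals of all 10 genes in replicate 2 span 1, with CTNNB1 at 0.980 (0.935 to 1.03) and NOTUM at 0.909 (0.807 to 1.02), and NKD1 in replicate 1 stays above 1. These ratios compare 2 libraries and not the conditions. Whether the difference between siLINC01186 and siNC itself differed between the numbers was not tested, since no residual degrees of freedom remain.

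**Figure D3:**
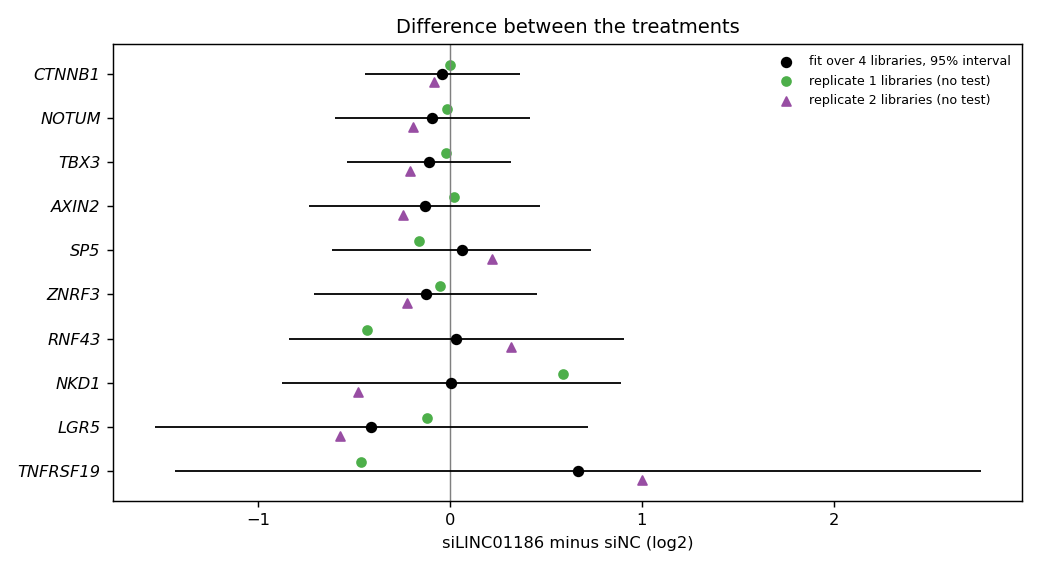
Difference between siLINC01186 and siNC for each of the 10 genes (horizontal axis, log2; genes on the vertical axis). Black points with bars are the edgeR estimate over the 4 libraries with its 95% interval, and every bar spans 0. Circles and triangles are the untested differences within replicate 1 and within replicate 2, which lie on opposite sides of 0 for 6 genes, NKD1 at 0.59 and -0.48 among them.

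The levels were also compared between the replicate numbers. In replicate 2 against replicate 1, with the siRNA as a term of the model, AXIN2 and RNF43 were higher and ZNRF3 and NOTUM lower at an adjusted p under 0.05 by edgeR's quasi-likelihood test. Among all genes 7.96% were higher and 9.55% lower by that test, against 2 and 2 of the 10 genes. AXIN2 stood at 16.4 ± 0.197 CPM (SD, n = 2) in replicate 1 and 23.1 ± 2.78 CPM in replicate 2, a log2 fold change of 0.49 (SE 0.15, edgeR adjusted p = 0.0109). RNF43 went from 4.46 ± 0.958 to 6.98 ± 1.11 CPM, a log2 fold change of 0.64 (SE 0.22, edgeR adjusted p = 0.0259). In the other direction, ZNRF3 went from 29.8 ± 0.759 to 21.2 ± 2.31 CPM (log2 fold change -0.50, SE 0.15, edgeR adjusted p = 0.00653), and NOTUM from 43.5 ± 0.310 to 33.2 ± 3.09 CPM (log2 fold change -0.39, SE 0.14, edgeR adjusted p = 0.0265). The related ligases RNF43 and ZNRF3 thus went opposite ways, as did the destruction complex scaffold AXIN2 and the secreted brake NOTUM.

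These 4 calls depended on the test. DESeq2's Wald test called 0 of the 10 genes, with adjusted p of 0.269 for AXIN2, 0.436 for RNF43, 0.198 for ZNRF3 and 0.269 for NOTUM. Without the siRNA term edgeR called 0 of the 10 as well, with adjusted p of 0.0627, 0.104, 0.0514 and 0.0959 in that order. With edgeR's own filter on low counts, AXIN2 and ZNRF3 passed, and RNF43 (edgeR adjusted p = 0.100) and NOTUM (0.0578) did not. With 1 library left out the log2 difference of RNF43 ranged from 0.27 to 1.05, the low end without siLINC01186 replicate 1 or siLINC01186 replicate 2 and the high end without siNC replicate 1 or siNC replicate 2.

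The remaining 6 genes did not pass the test between the replicate numbers. SP5 had a mean of 7.86 ± 0.622 CPM in replicate 1 and 10.7 ± 1.15 CPM in replicate 2 (log2 fold change 0.44, SE 0.19, edgeR adjusted p = 0.0919). CTNNB1 had a log2 fold change of -0.06 (SE 0.10, 95% interval -0.27 to 0.14, edgeR adjusted p = 0.793), a smaller difference than that of each of the 4 targets called. Both replicate 2 libraries lay above both replicate 1 libraries for AXIN2, LGR5, SP5, RNF43 and TNFRSF19, 5 of the 10, and this held for 27.0% of all genes. For CTNNB1, TBX3, ZNRF3 and NOTUM, 4 of the 10, they lay below, and this held for 25.6% of all genes. The median log2 fold change of the 10 genes was 0.35 and that of all genes tested 0.02. Summed over the 10 genes, the level was 373 and 371 CPM in replicate 1 and 367 and 339 CPM in replicate 2. The hepatocyte markers moved with the replicate number too. Of the 10, 9 were tested and 6 were higher in replicate 2 by edgeR's quasi-likelihood test, with 0 lower, while DESeq2's Wald test called 0. Left without KRT18, a choice made after the values were seen, the markers summed to 4.90 and 6.30 CPM in replicate 1 and 17.1 and 15.4 CPM in replicate 2. Their part in the difference between the replicate numbers was not tested. The labels give no date or run for the numbers. The study describes the same siNC in both repeats, so a different oligo applies to the siLINC01186 libraries only. Between the siNC libraries, the log2 differences of AXIN2, RNF43, ZNRF3 and NOTUM were 0.62, 0.27, -0.41 and -0.30. The culture and the library preparation that go with each number cannot be told apart. Within siLINC01186, the oligo cannot be told apart from them either.

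**Figure D4:**
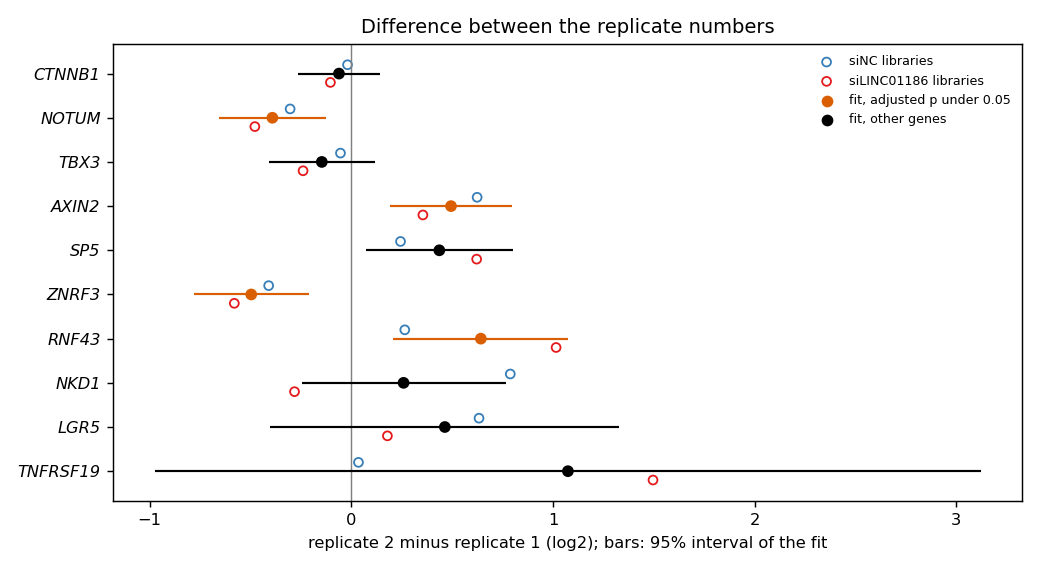
Difference between replicate 2 and replicate 1 for each of the 10 genes (horizontal axis, log2; genes on the vertical axis). Filled points with bars are edgeR estimates with 95% intervals, orange at an adjusted p under 0.05, and open circles are the difference within siNC (blue) and within siLINC01186 (red). AXIN2 and RNF43 lie above 0 and NOTUM and ZNRF3 below 0 in orange, and CTNNB1 lies at -0.06.

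The rest of the pathway was followed in 8 lists of genes ordered by role, and no gene of any list passed an adjusted p under 0.05 between siLINC01186 and siNC by edgeR's quasi-likelihood test. That fit had the siRNA as its single term, while the fit between the replicate numbers had both terms. Their counts of calls are thus not set against each other. With both terms, edgeR placed CCND1 and CTNND1 lower with siLINC01186 at an adjusted p under 0.05. In the fit with the single term, the median log2 fold changes of the lists lay between -0.18 and -0.02. That of all genes tested was 0.00453. Each of the 8 lists held more genes below 0 than above it, while of all genes tested 12158 were above and 11784 below. There were 6 above and 12 below among 18 receptors and co-receptors, and 2 and 7 among 9 secreted and membrane inhibitors. The 20 nuclear partners held 9 above and 11 below. The lists differed in how many genes were lower with siLINC01186 in both replicate numbers, which was the case for 26.6% of all genes. It was 11 of 18 receptors and co-receptors, 7 of 18 ligands, 6 of 9 inhibitors, 7 of 20 transducers, 6 of 20 nuclear partners, 4 of 5 adhesion partners, 4 of 14 liver targets and 6 of 19 targets in other tissues. Of the nuclear partners and of the targets in other tissues, 7 each were higher in both. Between the replicate numbers, every list held genes that passed by edgeR. Of all genes tested, 7.96% were higher and 9.55% lower in replicate 2 by that test. DESeq2's Wald test called 313 genes higher and 616 lower. The calls of each list are described next with the number that DESeq2 also called.

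Among the ligands and their secretion, 21 genes were listed and 18 tested, and edgeR's quasi-likelihood test placed 2 higher and 2 lower in replicate 2, while DESeq2 called WNT6 only. WNT6, a ligand of epithelia, rose from 1.91 and 1.26 CPM in siNC and siLINC01186 of replicate 1 to 6.81 and 4.84 CPM in replicate 2 (log2 fold change 1.88, SE 0.28, edgeR adjusted p = 2.15e-09). WNT11, a ligand mostly linked with beta-catenin-independent signalling, rose with a log2 fold change of 1.43, and WNT7B and WNT10B, which can signal through beta-catenin, fell with log2 fold changes of -0.56 and -0.34 at edgeR adjusted p of 4.46e-05, 0.000387 and 0.0161. WNT10B was the most abundant Wnt ligand of the list, at 122 to 191 CPM, followed by WNT5A at 80.6 to 110 CPM, which did not pass (log2 fold change -0.24, edgeR adjusted p = 0.173).

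Among the receptors and co-receptors, 18 of 21 were tested, 5 were higher and 3 lower by edgeR, and DESeq2 called FZD10 only. FZD10, a Frizzled receptor, stood at 20.4 and 17.8 CPM in siNC and siLINC01186 of replicate 1 and at 39.6 and 29.5 CPM in replicate 2 (log2 fold change 0.84, SE 0.15, edgeR adjusted p = 4.06e-07). FZD4 rose with a log2 fold change of 0.72 and FZD8 fell with -0.83, so Frizzled genes went both ways by this test. RSPO3, an R-spondin ligand that acts through LGR receptors to keep ZNRF3 and RNF43 away from Frizzled, stood at 16.7 and 22.4 CPM in replicate 1 and 10.5 and 13.1 CPM in replicate 2 (log2 fold change -0.72, SE 0.16, edgeR adjusted p = 0.000193). LRP5, the co-receptor, and LGR4, the R-spondin receptor related to LGR5, were the most abundant at 194 to 242 and 145 to 185 CPM, and neither passed (edgeR adjusted p = 0.491 and 0.988).

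Among the secreted and membrane inhibitors, 17 of 19 listed symbols were in the tables and 9 were tested, and edgeR called 2 higher and 1 lower. The list held TRABD2A and TRABD2B under their other names TIKI1 and TIKI2 as well. DKK1, a secreted blocker of LRP5 and LRP6, fell from 67.6 and 67.3 CPM in siNC and siLINC01186 of replicate 1 to 39.5 and 35.4 CPM in replicate 2 (log2 fold change -0.85, SE 0.13, edgeR adjusted p = 6.06e-09). KREMEN1, a membrane receptor for DKK1, rose from 6.63 and 4.83 to 15.8 and 12.0 CPM (log2 fold change 1.28, SE 0.19, edgeR adjusted p = 1.39e-09). These 2 were also called by DESeq2, and TRABD2B, a membrane protease that inactivates Wnt ligands, was not (log2 fold change 0.51, edgeR adjusted p = 0.00440). DKK1 went the same way as NOTUM, a secreted brake among the 10 genes. It was the only inhibitor of the list to do so, as 8 of the 9 tested had a log2 fold change above 0. Of those, SFRP4, SFRP5 and FRZB had only 5, 11 and 12 counts over the 4 libraries.

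Among the cytoplasmic transducers and the destruction complex, 20 of 21 were tested, 1 was higher and 4 lower by edgeR, and DESeq2 called DVL1 only. DVL1, a Dishevelled protein that passes the signal on from Frizzled, fell from 301 and 284 CPM in siNC and siLINC01186 of replicate 1 to 209 and 172 CPM in replicate 2 (log2 fold change -0.62, SE 0.10, edgeR adjusted p = 1.40e-07). CSNK1A1 and GSK3A, kinases that mark beta-catenin, and APC2, a relative of APC, fell with log2 fold changes of -0.50, -0.37 and -0.60. For CSNK1A1 the value of 1 library, siLINC01186 replicate 2 at 144 CPM, stood below 232 to 275 CPM in the other libraries. Of the 20 nuclear partners tested, 2 were higher and 6 lower by edgeR, and DESeq2 called BCL9L only. BCL9L, a coactivator that binds beta-catenin, fell from 439 and 417 to 286 and 277 CPM (log2 fold change -0.60, SE 0.10, edgeR adjusted p = 7.18e-08). CTNNBIP1, which blocks the binding of beta-catenin to TCF, rose with a log2 fold change of 0.67, as did the corepressor TLE2 with 0.94, and the chromatin remodeller SMARCA4 fell with -0.41.

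Among the 5 adhesion partners, all tested, CDH1 and CTNND1, the gene of p120-catenin, were higher in replicate 2 by edgeR and 0 by DESeq2. CDH1 had only 12 and 5 counts in siNC and siLINC01186 of replicate 1 and 21 and 32 in replicate 2. CTNND1 stood at 182, 116, 208 and 182 CPM in siNC and siLINC01186 of replicate 1 and of replicate 2, so siLINC01186 replicate 1 stood apart and the replicate numbers overlapped. JUP and CTNNA1, the gene of alpha-catenin, were the most abundant at 725 to 927 and 362 to 444 CPM and did not pass.

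Of 19 other genes reported as beta-catenin targets in liver, 14 were tested, 2 were higher in replicate 2 and 0 lower by edgeR, and DESeq2 called 0. GLUL, the glutamine synthetase gene and the classical marker of pericentral hepatocytes, stood at 92.8 to 108 CPM in the 4 libraries and did not pass (log2 fold change 0.16, SE 0.12, edgeR adjusted p = 0.419). The list was split in level. In 10 of the 19 genes no library held more than 6 counts, and CYP2E1, with 1 to 6 counts, CYP1A2, with 0 to 1, and LECT2, with 0, are among them. GLUL, AHR, OAT, CYP1A1 and HAL are among those with more. OAT, an ornithine-metabolizing enzyme of the pericentral zone, had 321 to 405 counts. CYP2E1, CYP1A2, LECT2 and OAT are named outside the rule for named genes. HAL, a histidine-degrading enzyme of the opposite, periportal zone, rose from 35 and 62 counts in siNC and siLINC01186 of replicate 1 to 128 and 118 in replicate 2 (log2 fold change 1.22, SE 0.24, edgeR adjusted p = 7.79e-06). The list thus holds genes that beta-catenin is known to raise and genes, such as HAL, that it is known to lower. CYP1A1, a xenobiotic-metabolizing enzyme, rose with a log2 fold change of 0.70, and its regulator AHR, the most abundant gene of the list at 132 to 145 CPM, did not pass. Of the hepatocyte markers, KRT18 and HNF4A were counted well above the floor in every library, as given above.

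Of 21 symbols listed as targets in other tissues, where KIAA1199 and CEMIP name the same gene, 19 were tested. By edgeR 1 was higher and 4 lower in replicate 2. FOSL1, an AP-1 subunit, fell from 101 and 90.1 CPM in siNC and siLINC01186 of replicate 1 to 43.9 and 35.2 CPM in replicate 2 (log2 fold change -1.28, SE 0.13, edgeR adjusted p = 4.47e-21). CCND1, the cyclin that drives entry into the cell cycle, fell from 344 and 316 to 232 and 132 CPM (log2 fold change -0.91, SE 0.10, edgeR adjusted p = 8.44e-16). CD44, a hyaluronan receptor, fell from 526 and 485 to 376 and 324 CPM (log2 fold change -0.53, SE 0.10, edgeR adjusted p = 1.53e-06). These 3 were also called by DESeq2. MYC fell with a log2 fold change of -0.32 and NEDD9, a scaffold protein of cell adhesion, rose with 0.73 by edgeR alone. Reported targets thus moved in both directions between the replicate numbers, AXIN2 and RNF43 with NEDD9 in one direction and NOTUM and ZNRF3 with FOSL1, CCND1, CD44 and MYC in the other.

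**Figure D5:**
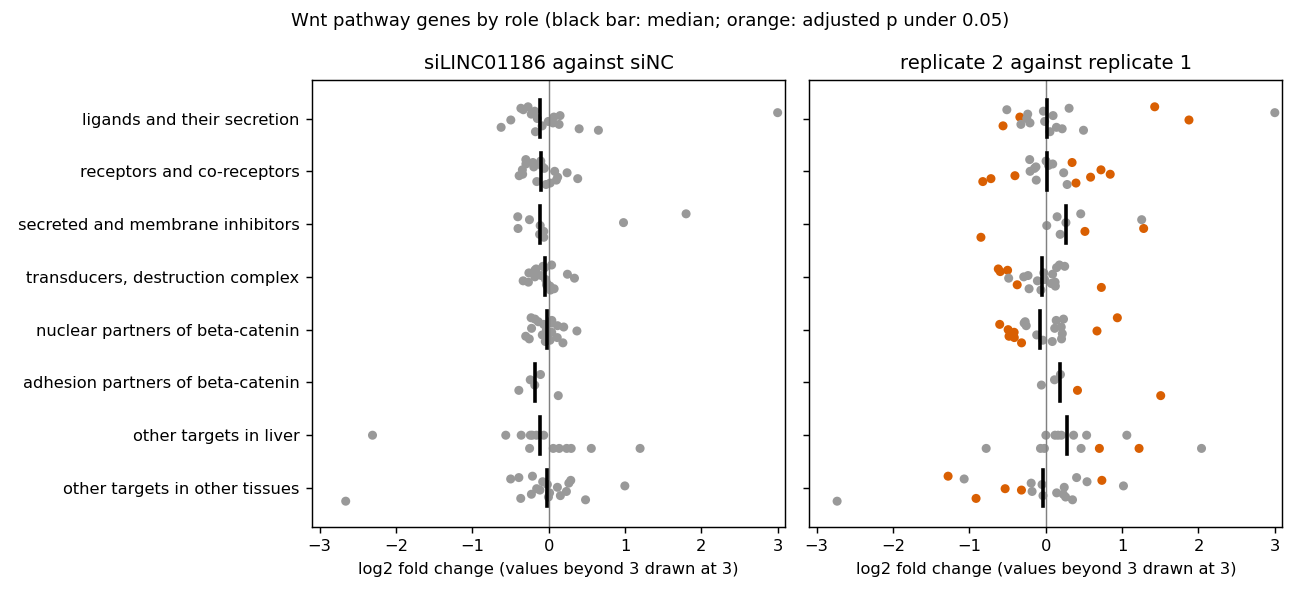
Log2 fold change of every tested gene of the 8 pathway lists (1 row per list on the vertical axis) for siLINC01186 against siNC and for replicate 2 against replicate 1 (horizontal axes, where values beyond 3 are drawn at 3). Each point is a gene, orange at an adjusted p under 0.05, and the black bar is the list's median. No point is orange in the siRNA comparison, whose medians lie between -0.18 and -0.02, and orange points lie on both sides of 0 between the replicate numbers, from -1.28 (FOSL1) to 1.88 (WNT6).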

How the data were processed

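Per the study's methods, mRNA was selected on oligo-dT beads and sequenced as paired ends. The authors deposited unnormalized read counts and TPM values per gene for each library, with gene positions and lengths. The submitters' processing notes name HISAT2, HISAT, TopHat2, Bowtie2 and hg19 with no order or role. The counting program, the annotation and the use of strand are not given in the sources used here, so overlapping and antisense genes may share counts.

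The counts were fitted with edgeR 4.0.16 in R 4.3.3. A gene needed 5 counts or more over the 4 libraries together to be kept (23942 of 44591), normalized by TMM and compared by the quasi-likelihood test, siLINC01186 against siNC without a block, and replicate 2 against replicate 1 with the siRNA as a term. Benjamini-Hochberg adjustment ran over every gene tested. The p-values measure the spread between these libraries, which may be technical. Library sizes scaled by TMM gave the CPM, and a prior count of 2 the log2 CPM. Calls used an adjusted p under 0.05 or the study's limits. The fits were tested on simulated data. DESeq2 1.42.0, other filters, size factors, the TPM, the block and leaving out each library were the alternatives. Ratios within a replicate number have exact 95% intervals. Promoters were RefSeq windows of GRCh38.p14, searched with Python 3.11.15.

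The 10 genes and the lists were chosen with earlier results of these data known. Named from each list were up to 4 genes called in either comparison, with the smallest p, and the 2 with the highest mean CPM.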

Additional observations from a re-analysis of the deposited data

How the results depend on the processing

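Few counts limit what can be seen for LGR5 and TNFRSF19. Between siLINC01186 and siNC, 82 of 99 recomputed fold changes of the 10 genes kept their direction, and none was called under any alternative. On the deposited TPM, NKD1, SP5 and RNF43 turned to -0.17, -0.09 and -0.11. With total counts or a prior count of 0.5, 39 of 40 differences within a replicate number kept their sign, the exception being CTNNB1 in replicate 1 with total counts (-0.0179). The number of genes at the adjusted p limit went from 0 to 1 higher with DESeq2's Wald test, and to 4 higher and 1 lower with at least 1 count in any library. Past the study's limits, 111 genes were higher and 70 lower, against 15 and 12 with DESeq2's Wald test and 32 and 14 with edgeR's expression filter. Between the replicate numbers, 1905 genes higher and 2286 lower became 313 and 616 with DESeq2's Wald test and 1064 and 1094 with no treatment term, and 1455 were lower with edgeR's expression filter. The cause was not tested.

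Without 1 library, 0 to 6 genes were higher and 0 to 1 lower at the adjusted p limit, and 95 to 286 were higher and 101 to 175 lower past the study's limits, the 6 and the 286 without siNC replicate 2. The log2 fold changes then ranged from -0.71 to -0.04 for LGR5 (the ends without siNC replicate 1 and siNC replicate 2), -0.41 to 0.21 for AXIN2, -0.34 to 0.46 for NKD1, -0.30 to 0.34 for SP5, -0.60 to 0.45 for RNF43, -0.44 to 0.12 for ZNRF3, -0.35 to 0.12 for NOTUM and -0.78 to 1.32 for TNFRSF19. Where 1 sample of a group was left, it was assumed to vary like the other group. With 3 libraries and a treatment term no residual degrees of freedom remain between the replicate numbers, so no call was made there. The log2 difference of SP5 ranged from 0.25 to 0.64 and that of NKD1 from -0.29 to 0.81.

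In the labels, libraries of the same replicate number are linked by that number alone. Deviations from the group means correlated at 0.563 across genes, a description, between same-numbered libraries, and the first principal component (62.4% of the variance) separated the numbers. With the replicate number as a block, 83 genes were higher and 195 lower at the adjusted p limit, RNF43 turned to a log2 fold change of -0.0139, and the adjusted p of the 10 genes was 0.951 to 0.999 (edgeR). Of the pathway lists, the block placed CCND1 and CTNND1 lower with siLINC01186.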
